A study of Mus musculus with 441 samples.

Results

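A set of 7 genes of microRNA production and RNA remodelling were followed through bulk RNA-seq, single-cell RNA-seq and ChIP-seq of mouse embryonic stem cells (mESCs). They were Dgcr8, Dicer1, Xpo5, Tarbp2, Mov10, Ddx5 and Ddx17, taken by name: 7 of 21001 names in the bulk table, 22392 in the single-cell mESC table, 18873 in the single-cell neural precursor table and 23167 ChIP windows. All 7 had a row in each table, and all 7 passed the filter on low values in bulk and in the averaged cells. Dgcr8 knockout (KO) cells, made in the v6.5 line, were cultured with serum and LIF and gave 2 bulk libraries and 1 plate of 84 cells. Wild-type v6.5 cells in 2i+LIF, a medium with inhibitors of the kinases MEK and GSK3, gave 1 bulk library and 1 plate of 94 cells. Wild-type v6.5 cells in serum+LIF gave 2 bulk libraries and 2 plates of 90 and 93 cells. All mESC groups received LIF, and the KO cells differed from the serum cells by genotype in the same medium. Neural precursor cells (NPCs), which are nestin-positive cells derived in vitro from v6.5 mESCs, gave 1 plate of 54 cells in a table of its own. ChIP-seq had 1 library for each mark in KO, 2i and serum cultures. Which exons the Dgcr8 deletion removes, and how many clones the KO line stands for, was not given in the sources used here.

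MicroRNAs are cut from long primary transcripts in the nucleus by the Microprocessor, in which the double-stranded RNA-binding protein DGCR8 holds the hairpin for the nuclease Drosha. The DEAD-box helicases DDX5 and DDX17, also called p68 and p72, are cofactors of that complex and also act in splicing and transcription. Exportin 5, the product of Xpo5, carries the pre-microRNA hairpin to the cytoplasm, where Dicer cuts it with its partner TRBP, the product of Tarbp2, and the strand is loaded into an Argonaute protein. MOV10 is an RNA helicase that binds Argonaute complexes and is known for restricting retroelements. Embryonic stem cells without DGCR8 lack canonical microRNAs, while microRNAs that need no Microprocessor can still be made by Dicer.

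Several of these genes host microRNAs themselves, and the deposited RNA values have to be read with that in mind. The Dgcr8 transcript carries hairpins that the Microprocessor is known to cleave, so the first sequences shown are of mir-1306, whose name in the deposited tables had values identical to Dgcr8 in all 3 RNA tables and is therefore no separate measurement of the microRNA. The Xpo5 values were likewise listed a second time under the name mKIAA1291. RefSeq places mir-1306 within Dgcr8 (chr16:18284239-18284317, minus strand, build GRCm38.p6). The hairpin and the mature microRNAs within Dgcr8 and Ddx5 are written 5′ to 3′, with the seed (bases 2 to 8, the part that pairs with targets) of each mature form in capitals.
mir-1306 hairpin: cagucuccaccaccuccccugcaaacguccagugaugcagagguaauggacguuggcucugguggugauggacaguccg
mmu-miR-1306-5p: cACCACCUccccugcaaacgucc
mmu-miR-1306-3p: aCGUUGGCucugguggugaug
mmu-miR-3618-5p: uGUGAUUUccaauaauugaggc
mmu-miR-3618-3p: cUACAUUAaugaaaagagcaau
mmu-miR-3064-5p: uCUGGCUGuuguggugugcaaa
mmu-miR-3064-3p: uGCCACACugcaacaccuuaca
The miR-1306 and miR-3618 forms lie in Dgcr8, and the miR-3064 forms lie in Ddx5. None of these 6 mature forms shared a seed with another.

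The promoters of the genes whose levels differed most are shown because the ChIP windows cover gene starts. Each RefSeq promoter (GRCm38.p6) runs from 250 bases before to 50 bases after the start, 5′ to 3′ on the gene's strand. The motifs searched on both strands were GGGCGG (the GC box of Sp and Klf factors), CCAAT (NF-Y), CCGGAAG (ETS factors), CACGTG (the E-box of Myc and Max), CATGCGC (an NRF1 half-site), TATAAA (the TATA box) and TGACGTC (7 letters of the cyclic AMP response element). Matches, or their reverse complements, are in capitals.
Mov10, chr3:104818514-104818813, minus strand: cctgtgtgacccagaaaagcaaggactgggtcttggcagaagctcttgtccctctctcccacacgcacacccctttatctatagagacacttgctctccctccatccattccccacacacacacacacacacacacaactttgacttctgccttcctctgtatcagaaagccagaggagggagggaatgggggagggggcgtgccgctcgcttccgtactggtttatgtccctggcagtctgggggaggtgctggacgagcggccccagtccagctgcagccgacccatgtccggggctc
Ddx17, chr15:79546692-79546991, minus strand: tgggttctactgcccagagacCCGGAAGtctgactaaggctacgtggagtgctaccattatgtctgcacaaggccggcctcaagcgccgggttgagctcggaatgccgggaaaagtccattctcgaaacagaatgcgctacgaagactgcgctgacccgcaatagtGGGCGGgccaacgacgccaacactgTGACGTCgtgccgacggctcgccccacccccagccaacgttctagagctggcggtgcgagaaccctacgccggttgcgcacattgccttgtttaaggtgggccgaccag
Dgcr8, chr16:18289119-18289418, minus strand: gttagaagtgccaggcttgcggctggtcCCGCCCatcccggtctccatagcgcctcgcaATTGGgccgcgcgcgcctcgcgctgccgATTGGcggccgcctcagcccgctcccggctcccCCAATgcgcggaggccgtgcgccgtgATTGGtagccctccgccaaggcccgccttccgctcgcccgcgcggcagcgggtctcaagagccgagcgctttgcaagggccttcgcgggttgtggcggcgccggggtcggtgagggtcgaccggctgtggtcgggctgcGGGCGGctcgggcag
Xpo5, chr17:46202561-46202860, plus strand: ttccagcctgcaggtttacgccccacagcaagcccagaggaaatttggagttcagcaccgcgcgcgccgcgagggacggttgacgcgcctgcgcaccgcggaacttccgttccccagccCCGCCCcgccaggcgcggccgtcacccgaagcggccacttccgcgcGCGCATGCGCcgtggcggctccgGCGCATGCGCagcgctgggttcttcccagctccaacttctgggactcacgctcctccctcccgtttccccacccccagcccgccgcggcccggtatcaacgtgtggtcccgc
The Mov10 promoter held none of the 7 motifs and 9 CpG dinucleotides, against a median of 7 over 32851 promoters. Its second RefSeq start, with 13 CpG, held none either. The Ddx17 promoter had 27 CpG and 1 match each to the GC box, the ETS motif and the cyclic AMP response element, which occurred in 35.7%, 8.86% and 3.21% of all promoters. The Dgcr8 promoter had 43 CpG, 2 GGGCGG and 4 CCAAT matches, and CCAAT occurred in 37.4% of promoters. The Xpo5 promoter had 40 CpG and 4 matches to CATGCGC, which occurred in 3.91% of promoters. These 4 overlap in pairs, with 1 match of each pair on either strand. A match is a run of letters and no evidence of binding.

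The RNA values are TPM (a length-normalised share of transcripts), which keeps no trace of read depth. The number of genes at a TPM of at least 1 had a median of 9318 per cell on the KO plate, 9974 on the 2i plate, 7780 and 7648 on the serum plates and 7368 on the NPC plate. All 8 mESC markers (Pou5f1, Nanog, Sox2, Zfp42, Esrrb, Dppa5a, Tdgf1 and Fgf4) reached a mean TPM of 1 on every mESC plate, with sums of 23062 TPM on the KO plate, 18268 TPM on the 2i plate and 8071 and 12084 TPM on the serum plates. All 8 also reached that mean on the NPC plate, where they summed to 652 TPM over the mean of the cells and to 23.7 TPM in the median cell. Of the 7 neural precursor markers, 5 reached a mean TPM of 1 on the NPC plate, where they summed to 1367 TPM, against 86.1 TPM in KO, 51.99 TPM in 2i and 6.598 and 7.94 TPM in serum cells. Of the 8 fibroblast and feeder markers, 1 reached a TPM of 1 on the KO plate (sum 1.97 TPM), and none did on the 2i plate (sum 0.667 TPM) or the serum plates (sums of 0), while 6 did on the NPC plate (sum 174 TPM). The 7 primitive endoderm markers summed to 0.968 TPM in KO, 0.399 TPM in 2i, 0 TPM on both serum plates and 39.8 TPM in NPCs. The KO and 2i libraries lay above serum across most genes, so member values are also given relative to the median gene. The median gene was 0.92 higher on the log2 scale in bulk KO than in bulk serum, 0.20 higher in bulk 2i than in serum, 1.38 higher on the KO plate and 1.24 higher on the 2i plate than on the serum plates.

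In bulk, Mov10 and Ddx17 rose in KO cells to a mean 70.4-fold and 76.7-fold of serum, Dicer1 rose less, and Dgcr8 and Xpo5 fell. In total 5 members therefore passed the test in KO against serum (limma, Benjamini-Hochberg adjusted p under 0.05 over 10081 genes), 3 higher and 2 lower, in a comparison where 74.3% of all genes passed, 62.5% higher and 11.7% lower. In 2i, 4 members passed, Mov10 and Ddx17 higher and Dgcr8 and Xpo5 lower, against 32.1% of all genes, 20.4% higher and 11.8% lower. With each library centred on its median gene, 6 members passed in KO against serum (58.3% of all genes, 21.8% higher and 36.5% lower), and they were Mov10 and Ddx17 higher and Dgcr8, Xpo5, Tarbp2 and Ddx5 lower. The same 6 passed in the same directions in 2i after centring, against 32.4% of all genes, 13.8% higher and 18.7% lower. KO and 2i were compared with the same 2 serum libraries. Over all genes, both KO libraries lay above both serum libraries for 71.2% and below both for 15.4%, and the 2i library lay above both for 51.9% and below both for 31.9%. Log2 differences are on the log2(TPM + 1) scale, which understates changes at low levels, and in bulk libraries fewer cells of a type and less RNA per cell cannot be told apart.

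**Figure D1:**
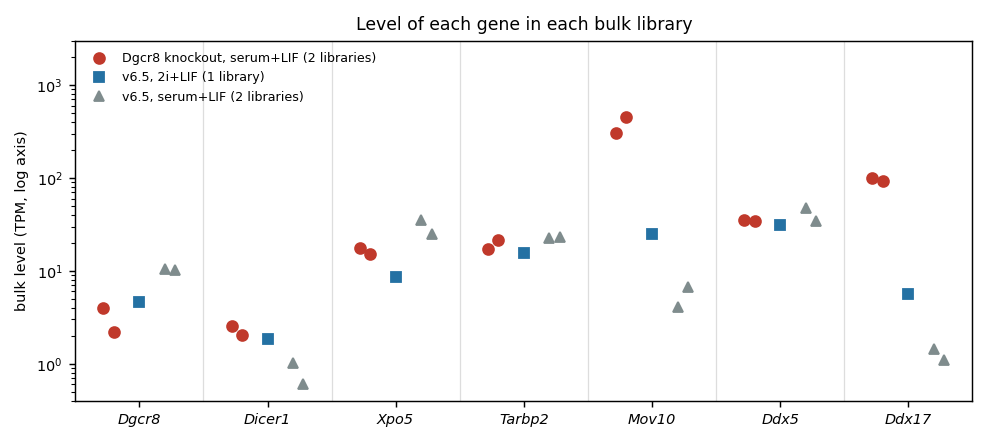
Level of the 7 genes in each bulk library, in TPM on a log axis, with circles for the 2 KO libraries, a square for the 2i library and triangles for the 2 serum libraries. Mov10 and Ddx17 stand at 93.8 TPM or more in both KO libraries and at 6.72 TPM or less in both serum libraries, with the 2i library between.

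Dgcr8, the gene targeted in the KO line, had 4.03 and 2.2 TPM in the KO libraries, 4.66 TPM in the 2i library and 10.6 and 10.3 TPM in the serum libraries. Both KO libraries and the 2i library lay below both serum libraries, and the 2i value was close to the higher KO value. The KO line still had reads assigned to the gene. TPM is summed over the gene, so the level does not check which exons were lost. The fall was 1.51 on the log2 scale in KO (SE 0.28, limma adjusted p = 3.58e-04), which ranked 305 from the lowest of 10081 genes. In 2i the log2 difference was -1.02 (SE 0.34, limma adjusted p = 0.0379). That 2i call ended without either serum library in turn, with adjusted p-values up to 0.172 over the alternatives.

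Among the Microprocessor cofactors, Ddx17 changed and its paralog Ddx5 did not pass the test. How reads shared by the 2 paralogs were assigned was not given in the sources used here. Ddx17 had 101.04 and 93.8 TPM in KO, 5.60 TPM in 2i and 1.45 and 1.09 TPM in serum. The groups did not overlap, and the 2i library lay between KO and serum. The log2 difference was 5.44 in KO against serum (SE 0.23, limma adjusted p = 3.03e-09), rank 9 of 10081 genes from the highest, and 1.54 in 2i against serum (SE 0.28, adjusted p = 0.00115). Ddx5 had 35.1 and 34.5 TPM in KO, 31.1 TPM in 2i and 48 and 34.1 TPM in serum. The KO libraries lay within the range of the serum libraries, and the 2i library just below it. Its log2 difference was -0.21 in KO (limma adjusted p = 0.361) and -0.37 in 2i (adjusted p = 0.288). Relative to the median gene the KO difference was -1.13, and after centring it passed the test (adjusted p = 2.31e-04). It also passed without the second serum library and turned to 0.03 without the first. The ratio of Ddx17 to Ddx5 was 2.88 and 2.72 in KO, 0.180 in 2i and 0.0302 and 0.0320 in serum, so Ddx17 was the higher of the pair in the KO libraries and the lower in 2i and serum.

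Xpo5, the exporter of pre-microRNAs, fell in both KO and 2i bulk cells. It had 17.5 and 15.3 TPM in KO, 8.66 TPM in 2i and 35.7 and 25.2 TPM in serum. The 2i library was the lowest, and the serum libraries, though apart from each other, were both above the KO libraries. The log2 difference was -0.84 in KO (SE 0.23, limma adjusted p = 0.00545) and -1.68 in 2i (SE 0.28, adjusted p = 6.82e-04), rank 271 from the lowest. Without either KO library in turn the KO call ended, with adjusted p-values up to 0.107 over the alternatives. With no filter on low values the KO and 2i calls ended too, the 2i one at an adjusted p of 0.0541.

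Of the cytoplasmic Dicer step, the nuclease gene rose in KO and the gene of its partner did not pass. Dicer1 had 2.55 and 2.06 TPM in KO, 1.87 TPM in 2i and 1.02 and 0.605 TPM in serum. Both KO libraries and the 2i library lay above both serum libraries, as most genes did. The log2 difference in KO was 0.87 (SE 0.25, limma adjusted p = 0.00747). It lay 0.05 below that of the median gene, and after centring it was -0.25 (adjusted p = 0.324). The call also ended without the first KO library or the second serum library. In 2i it was 0.67 (adjusted p = 0.117). Tarbp2 had 17 and 21.5 TPM in KO, 15.4 TPM in 2i and 22.7 and 22.9 TPM in serum. Both KO libraries lay below serum and the 2i library was the lowest, with log2 differences of -0.24 in KO (limma adjusted p = 0.312) and -0.54 in 2i (adjusted p = 0.135). After centring both Tarbp2 differences passed, with adjusted p-values of 7.48e-04 in KO and 0.0364 in 2i.

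Mov10 was the member with the highest level in KO bulk cells. It had 308 and 455 TPM in KO, 25.2 TPM in 2i and 4.12 and 6.72 TPM in serum. The groups did not overlap, and the 2i library again lay between. The log2 difference was 5.90 in KO (SE 0.24, limma adjusted p = 2.63e-09), rank 6 of 10081 genes, and 2.06 in 2i (SE 0.30, adjusted p = 2.30e-04), rank 274. Relative to the median gene these differences were 4.98 and 1.86. The KO calls of Mov10 and Ddx17 held in all 12 alternatives run for each. With no filter on low values the Mov10 call in 2i ended (adjusted p = 0.0700).

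In bulk, KO and 2i cells differed from each other in 3 members, Mov10, Ddx17 and Xpo5, all higher in KO. In that comparison 61% of all genes passed, 49.1% higher and 11.9% lower, so the count and its direction are no result about the members. The log2 difference of KO minus 2i was 3.84 for Mov10 (SE 0.30, limma adjusted p = 8.44e-07), 3.897 for Ddx17 (SE 0.28, adjusted p = 4.36e-07) and 0.85 for Xpo5 (SE 0.28, adjusted p = 0.0200). The median gene was 0.72 higher in KO than in 2i, and after centring the Xpo5 difference was -0.023. The Xpo5 call also ended with no filter on low values, with quantile normalisation and without either KO library in turn. After centring 4 members passed, Mov10 and Ddx17 higher and Ddx5 and Dgcr8 lower in KO, where 49.6% of genes did, 19.9% higher and 29.7% lower. Dgcr8 differed by -0.50 between KO and 2i (SE 0.34, limma adjusted p = 0.221). Ordered by level in KO, Mov10 stood above Ddx17, then Ddx5, and then Tarbp2 and Xpo5, whose libraries overlapped, and last Dgcr8 and Dicer1, which also overlapped. In serum, Ddx5 and Xpo5 overlapped at the top, followed by Tarbp2, Dgcr8, Mov10, Ddx17 and Dicer1, none of which overlapped with a neighbour.

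In single cells the rise of Mov10 and Ddx17 was present in nearly every KO cell, and Ddx17 separated 2i from serum cells as well. The share of all genes whose cells separate so was not counted, and both plates lay above serum for most genes. For averaged cells, 4 members passed the test in KO against serum plates, all higher (Mov10, Ddx17, Dicer1 and Ddx5), where 53% of 12397 genes passed, 50% higher and 2.97% lower. In 2i, 2 passed, Mov10 and Ddx17, where 40.8% of genes passed, 39% higher and 1.82% lower. After centring on the median gene, Mov10 and Ddx17 were higher and Xpo5 and Dgcr8 lower in KO (45.8% of genes passed, 17.6% higher and 28.2% lower), and Mov10 and Ddx17 were higher and Dgcr8 lower in 2i (34.9% passed, 14.3% higher and 20.7% lower). Over all genes, the KO plate lay above both serum plates for 84.4% and below both for 10.6%, and the 2i plate for 84.3% and 10.1%. The KO and 2i conditions had 1 plate each, which the test assumes to vary like the 2 serum plates. One serum plate carries a date in its title. Plate and condition cannot be told apart for KO and 2i.

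**Figure D2:**
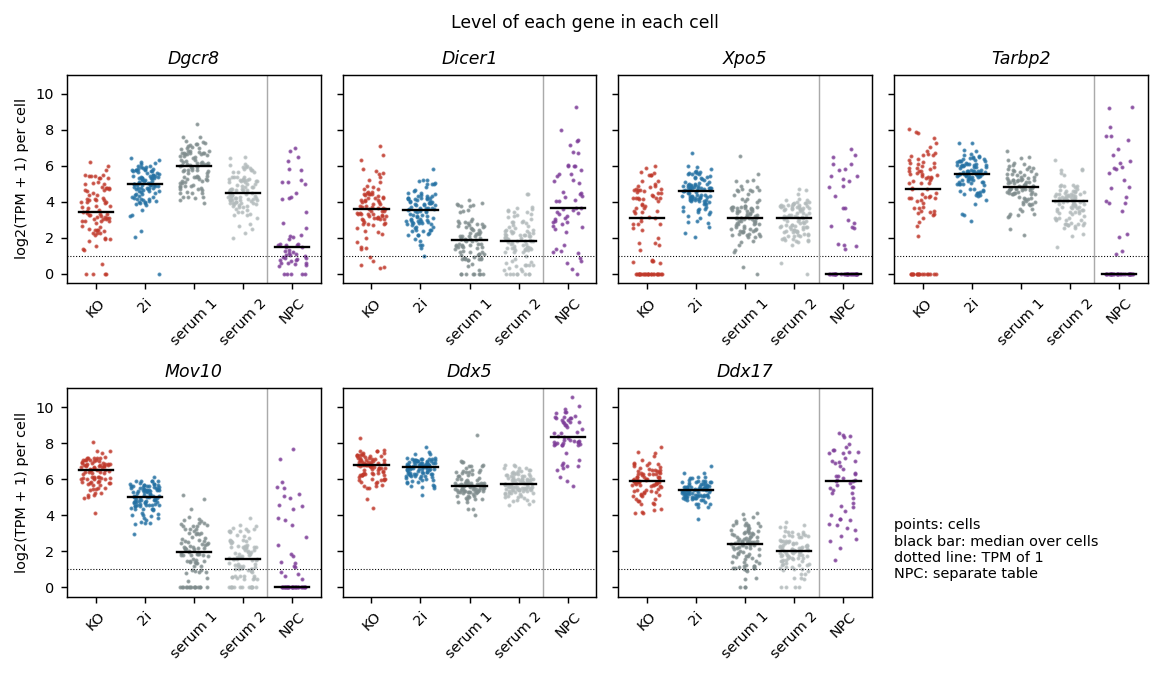
Level of each member in every cell, as log2(TPM + 1), by plate, with a bar at the median and a dotted line at a TPM of 1. NPCs are drawn apart because their table was normalised separately. Ddx17 lies above the highest serum cell in 82 of 84 KO cells and 93 of 94 2i cells, while Xpo5 and Tarbp2 on the KO plate have cells at or near 0. How many of all genes separate so was not counted.

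Mov10 had a lowest, median and highest cell of 16, 89.4 and 264 TPM on the KO plate, 6.70, 31.1 and 69.2 TPM on the 2i plate, and 0, 2.92 and 33.8 TPM and 0, 1.96 and 13.3 TPM on the serum plates. In 79 of 84 KO cells (94.0%) and 41 of 94 2i cells (43.6%) it exceeded the highest of 183 serum cells. The share of all genes that do so was not counted. The plate means of 91.3 TPM in KO and 32.7 TPM in 2i, against 4.61 and 2.76 TPM in serum, gave log2 differences of 4.33 (SE 0.40, limma adjusted p = 0.0254) and 2.88 (SE 0.40, adjusted p = 0.0424). The 2i call ended with no filter (adjusted p = 0.0530) and with quantile normalisation (adjusted p = 0.0788). The KO plate was therefore lower in Mov10 than the KO bulk libraries, while the 2i plate was higher than the 2i library.

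Ddx17 had a lowest, median and highest cell of 16.1, 58.8 and 221 TPM on the KO plate, 12.8, 40.8 and 105 TPM on the 2i plate, and 0, 4.33 and 16.4 TPM and 0, 2.96 and 11.3 TPM on the serum plates. It exceeded the highest serum cell in 97.6% of KO cells and 98.9% of 2i cells, so the groups overlapped in 2 KO cells and 1 2i cell at most. As for Mov10, the share of all genes with such a separation was not counted. The log2 difference of plate means was 3.72 in KO (SE 0.33, limma adjusted p = 0.0245) and 3.08 in 2i (SE 0.33, adjusted p = 0.0359), and the 2i call ended with quantile normalisation (adjusted p = 0.0534). Ddx5 had a median of 107 TPM on the KO plate, 99.0 TPM on the 2i plate and 48.5 and 51.1 TPM on the serum plates, with overlapping ranges. It lay above the median serum cell in 92.9% of KO and 94.7% of 2i cells. The Ddx5 log2 difference was 0.93 in KO (SE 0.17, limma adjusted p = 0.0459), which is 0.46 below the median gene and turned to -0.62 after centring, and 0.80 in 2i (adjusted p = 0.0604). The ratio of the plate means of Ddx17 to Ddx5 was 0.607 in KO, 0.423 in 2i and 0.0847 and 0.0610 in serum. Ddx17 was thus below Ddx5 on the KO plate and above it in the KO bulk libraries.

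Dgcr8 had a median of 9.89 TPM on the KO plate, 30.95 TPM on the 2i plate and 61.6 and 21.5 TPM on the serum plates. The KO plate lay below both serum plates and the 2i plate lay between them, while the serum plates differed from each other more than in any other member. Plate means were 16.02 TPM in KO, 33.95 TPM in 2i and 72.5 and 26.99 TPM in serum, with a KO log2 difference of -1.41 (SE 0.82, limma adjusted p = 0.243). After centring, the KO difference passed (adjusted p = 1.72e-04). In 2i the difference was -0.38 (adjusted p = 0.715). Without the first serum plate the KO difference was -0.72 and the 2i difference 0.32, and without the second they were -2.11 and -1.07, with no test in either case.

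Xpo5 did not follow its bulk pattern in the 2i cells. Whether it did in the KO cells depended on centring, on quantile normalisation and on how the cells were summarised. Its plate means were 12.95 TPM in KO, 25.4 TPM in 2i and 11.5 and 8.24 TPM in serum, so the 2i plate was the highest where the 2i bulk library was the lowest. The log2 differences were 0.37 in KO (SE 0.34, limma adjusted p = 0.412) and 1.29 in 2i (SE 0.34, adjusted p = 0.0810). Relative to the median gene they were -1.01 in KO and 0.05 in 2i. After centring the KO difference was -1.17, in the direction of bulk, and the 2i difference was -0.021. The gap between bulk and plates was not tested. Tarbp2 plate means were 42.9 TPM in KO, 51.8 TPM in 2i and 32.4 and 17.01 TPM in serum, and neither the KO difference (0.84, limma adjusted p = 0.279) nor the 2i difference (1.11, adjusted p = 0.195) passed. Dicer1 plate means were 17.2 TPM in KO, 12.7 TPM in 2i and 3.64 and 3.70 TPM in serum. Its KO log2 difference of 1.96 passed (SE 0.27, limma adjusted p = 0.0354) and was 0.58 above the median gene. After centring it was 0.42 (adjusted p = 0.192) and with quantile normalisation 0.48 (adjusted p = 0.252), so that call ended under both. Its 2i difference was 1.56 (SE 0.27, adjusted p = 0.0508).

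Detection, the share of cells with a TPM of at least 1, set Xpo5 and Tarbp2 apart on the KO plate. The exact (Clopper-Pearson) 95% intervals that follow cover counting error over cells only. Xpo5 was detected in 55 of 84 KO cells (65.5%, interval 54.3 to 75.5%), in all 94 2i cells and in 97.8% of cells on each serum plate. Tarbp2 was detected in 67 of 84 KO cells (79.8%, interval 69.6 to 87.7%) and in every 2i and serum cell. Both shares were below those of either serum plate although mean levels on the KO plate were above both. Among KO cells that had them, the median levels were 17.5 TPM for Xpo5 and 38.9 TPM for Tarbp2, against 7.94 and 7.74 TPM for Xpo5 and 27.1 and 15.5 TPM for Tarbp2 in such serum cells. The KO plate thus had more cells below a TPM of 1 and higher levels in the rest, on a plate where the median gene was itself 1.38 higher than in serum on the log2 scale.

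Those low shares were uncommon among genes of any level so widely detected in serum. Of 3411 genes seen in at least 95% of cells on both serum plates, 44 (1.29%) had a KO share at or below that of Xpo5 and 155 (4.54%) at or below that of Tarbp2. The median share of such genes on the KO plate was 100%. These genes were not matched to the levels of Xpo5 and Tarbp2, and detection depends on level. Among KO cells, 29 were below a TPM of 1 for Xpo5 (24 of them at 0), 17 for Tarbp2 (all at 0) and 8 for both, and 46 reached it for both. The median number of genes detected was 9183 in KO cells below that level of Xpo5 and 9432 in those that reached it, and 8986 and 9435 for Tarbp2. At the median, KO cells below the level for either gene detected fewer genes than the others, and the part of that gap in the result was not tested.

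The other members were lost less often in KO cells or gained cells. Dgcr8 was detected in 79 of 84 KO cells (94.0%, interval 86.7 to 98.04%), 93 of 94 2i cells and every serum cell, and 20.7% of the widely detected genes had a KO share at or below that. Dicer1 was also detected in 79 KO cells and in all 94 2i cells, against 76.7% and 76.3% of cells on the serum plates. Mov10 was detected in every KO and 2i cell, against 74.4% and 66.7% of serum cells, and Ddx17 in every KO and 2i cell, against 92.2% and 86.02%. Ddx5 was detected in every cell of every plate. The KO and 2i plates also detected more genes per cell, and its part in these shares was not tested.

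Variability between cells was taken as the SD over cells of log2(TPM + 1), and its excess as the distance from a running median over genes with similar mean levels on the same plate. Tarbp2 stood out on the KO plate, with an SD of 2.42, higher than that of 94.5% of genes of like level, and an excess of 0.84. On the 2i plate its SD was 0.81, and on the serum plates 0.88 and 0.88, with excesses of 0.03, -0.05 and -0.11. Xpo5 had an SD of 2.07 in KO, higher than that of 74.6% of genes of like level. Its SD was 0.85 in 2i and 1.09 and 0.84 in serum. Its excess was 0.26 in KO, -0.16 in 2i and -0.08 and -0.24 in serum. These are the cells counted above for detection, so variability and detection are not separate results here.

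Ddx17 had the lowest excess SD of the members on each of the 4 mESC plates. Its SD was 0.79 in KO, 0.45 in 2i and 0.96 and 0.82 in serum, and its excess was -0.36 in KO, -0.41 in 2i and -0.38 and -0.30 in serum. On the 2i plate only 0.498% of genes of like level had a lower SD. Ddx5 was below the running median on every plate too, with excesses of -0.33 in KO, -0.17 in 2i and -0.12 and -0.19 in serum, and on the KO plate 6.97% of genes of like level had a lower SD than Ddx5, against 14.4% for Ddx17. Mov10 had an SD of 0.71 in KO, 0.66 in 2i and 1.27 and 1.03 in serum, and excesses of -0.26, -0.25, 0.02 and -0.07 in the same order. Dicer1 was below the running median on all 4 plates (excesses of -0.33 in KO, -0.26 in 2i and -0.19 and -0.04 in serum). Dgcr8 was below it only in KO (-0.27), with 0.04 in 2i and 0.16 and 0.09 in serum. By construction about as many genes lie above the running median as below it, and 49.5% lay above on the KO plate.

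**Figure D3:**
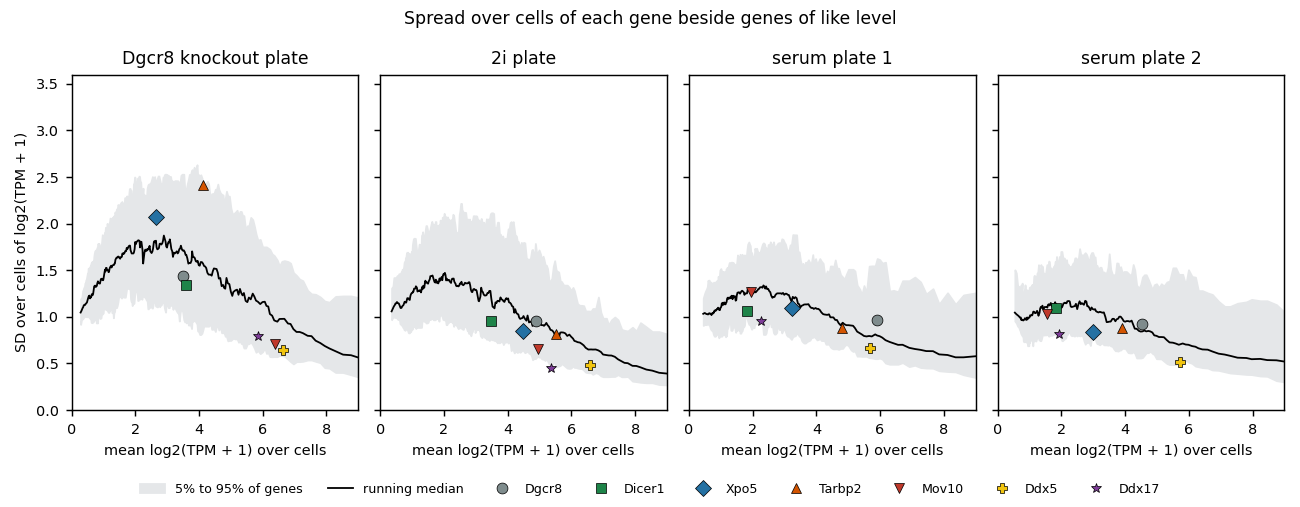
SD over cells against mean level, both of log2(TPM + 1), on the KO, 2i and both serum plates. The line is the running median over genes of similar level, the band holds 5 to 95% of genes around it, and symbols mark the members. Tarbp2 on the KO plate lies 0.84 above the line, and Ddx17 lies below it on every plate.

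Correlations between members across cells were weak on the KO and 2i plates and higher for some pairs on the serum plates. Over the 21 pairs of members, Spearman correlations across cells had a median of 0.01 on the KO plate, with a range of -0.17 to 0.23. On the 2i plate the median was 0.02 (range -0.16 to 0.20), and on the serum plates 0.11 (-0.17 to 0.46) and 0.11 (-0.10 to 0.37). The highest value, 0.46, was for Xpo5 and Ddx5 on the first serum plate. On that plate Tarbp2 and Ddx5 had 0.41, Xpo5 and Tarbp2 0.38, and Dicer1 and Ddx5 0.38. The highest on the second serum plate, 0.37, was for Dicer1 and Mov10. Depth per cell is unknown and pairs of other genes are not set beside these. The values are therefore descriptions, and the weak ones are no finding.

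NPC levels stand beside the mESC values without a test, since they come from a separately normalised table of 1 plate. Ddx5 had a lowest, median and highest NPC of 47.9, 317 and 1488 TPM, and its mean of 419 TPM compares with 108 TPM in KO, 99.2 TPM in 2i and 57.6 and 55.5 TPM in serum mESCs. Ddx17 had a mean of 92.1 TPM in NPCs, with cells between 1.81 and 379 TPM, and was detected in all 54. Dicer1 averaged 44.3 TPM in NPCs and was detected in 49 of 54 cells (90.7%). The remaining members were below a TPM of 1 in many NPCs. Dgcr8 reached it in 35 of 54 NPCs (64.8%) and was low rather than absent in most others, with 5 cells at 0 and a median of 1.79 TPM. Tarbp2 reached it in 26 NPCs (48.1%), Xpo5 in 25 (46.3%) and Mov10 in 22 (40.7%), and these were at 0 in 28, 29 and 28 cells. The means of Tarbp2 (51.97 TPM) and Xpo5 (15.5 TPM) were nonetheless near those of the mESC plates. As on the KO plate, Tarbp2 in NPCs lay 0.79 above the running median of SD. The ratio of Ddx17 to Ddx5 was 0.220 in NPCs.

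At the gene starts, RNA polymerase II (RNAP2) and H3K4me3, the methylation mark of active promoters, were counted in 1000-base windows. The file does not name the window's place, but neighbouring genes on opposite strands had the same offset from their starts within 1 base in 61.97% of 6289 pairs, which puts it 500 bases to each side of the start. The windows in build mm9 were chr16:18288762-18289761 for Dgcr8, chr3:104620724-104621723 for Mov10, chr15:79376490-79377489 for Ddx17 and chr11:106649309-106650308 for Ddx5, all on the minus strand. Those of the others were chr17:46339304-46340303 for Xpo5 and chr15:102348123-102349122 for Tarbp2, both on the plus strand, and chr12:105989663-105990662 for Dicer1 on the minus strand. Each culture had 1 library per mark, so there is no test between cultures, and the intervals cover counting error only.

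Mov10 was the only member with both marks above serum beyond counting error in KO, and Ddx17 had neither above serum. Mov10 had 172 RNAP2 counts in KO, 63 in 2i and 94 in serum. Scaled to the counts over all windows, the log2 ratio was 0.77 in KO against serum (95% counting interval 0.40 to 1.15), higher than in 93.4% of windows, and 0.18 in 2i (-0.31 to 0.65). Its H3K4me3 counts were 839 in KO, 839 in 2i and 1465 in serum, from libraries of 5686479, 9687863 and 15315269 counts. The log2 ratios were 0.63 in KO (0.50 to 0.75) and -0.14 in 2i (-0.27 to -0.02). The KO values were thus above serum for both marks and the 2i values were not.

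Ddx17 had 178 RNAP2 counts in KO, 95 in 2i and 225 in serum. The log2 ratios were -0.44 in KO (-0.73 to -0.15) and -0.49 in 2i (-0.85 to -0.14), both below serum. Its H3K4me3 counts were 1214 in KO, 1984 in 2i and 3307 in serum, with log2 ratios of -0.02 (-0.11 to 0.08) in KO and -0.08 (-0.16 to 0.0043) in 2i. Set side by side, bulk Ddx17 RNA was 76.7-fold of serum in KO while RNAP2 counts in its window were lower. RefSeq lists a second Ddx17 start (promoter chr15:79532868-79533167, minus strand, GRCm38.p6, with 14 CpG and 1 TATAAA match). The 2 starts lie farther apart than the window is long, so it cannot hold both, and RNAP2 at the other start was not analysed here. In serum, with 1.45 and 1.09 TPM of RNA in bulk, the Ddx17 window already held more RNAP2 than 95.2% of windows and more H3K4me3 than 98.6%. Input counts of the Ddx17 window were 38 in KO, 59 in 2i and 27 in serum.

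Dgcr8 had 216 RNAP2 counts in KO, 129 in 2i and 210 in serum, with a KO log2 ratio of -0.06 (-0.34 to 0.22), while bulk RNA was 0.298 of serum. Its H3K4me3 log2 ratio was -0.31 in KO (-0.47 to -0.16) and 0.13 in 2i (0.02 to 0.25). Xpo5 had 76 RNAP2 counts in KO, 54 in 2i and 83 in serum, and its intervals spanned 0 in both comparisons. Its H3K4me3 log2 ratio was -0.25 in KO (-0.36 to -0.13) and -0.02 in 2i (-0.11 to 0.07). Ddx5 had the most RNAP2 of the members, 609 counts in KO, 384 in 2i and 682 in serum, above 99.3% of windows in KO and 99.4% in both 2i and serum. Its RNAP2 log2 ratio was -0.26 in KO (-0.42 to -0.10). Tarbp2 had 206 RNAP2 counts in KO, 100 in 2i and 224 in serum, with a 2i log2 ratio of -0.41 (-0.76 to -0.06). Its input counts were 25 in KO, 32 in 2i and 46 in serum, the last above 99.3% of windows. With input subtracted, its RNAP2 log2 ratios turned to 0.67 in KO and 0.21 in 2i, so the direction depends on the input. Dicer1 had 98, 34 and 68 counts in KO, 2i and serum, and its intervals spanned 0 in both comparisons. No member lay 1 or more from the median window on the log2 scale in either mark, a distance that 7.96% (KO) and 12.3% (2i) of windows with at least 20 serum counts passed for RNAP2, and 8.11% and 10.4% for H3K4me3.

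**Figure D4:**
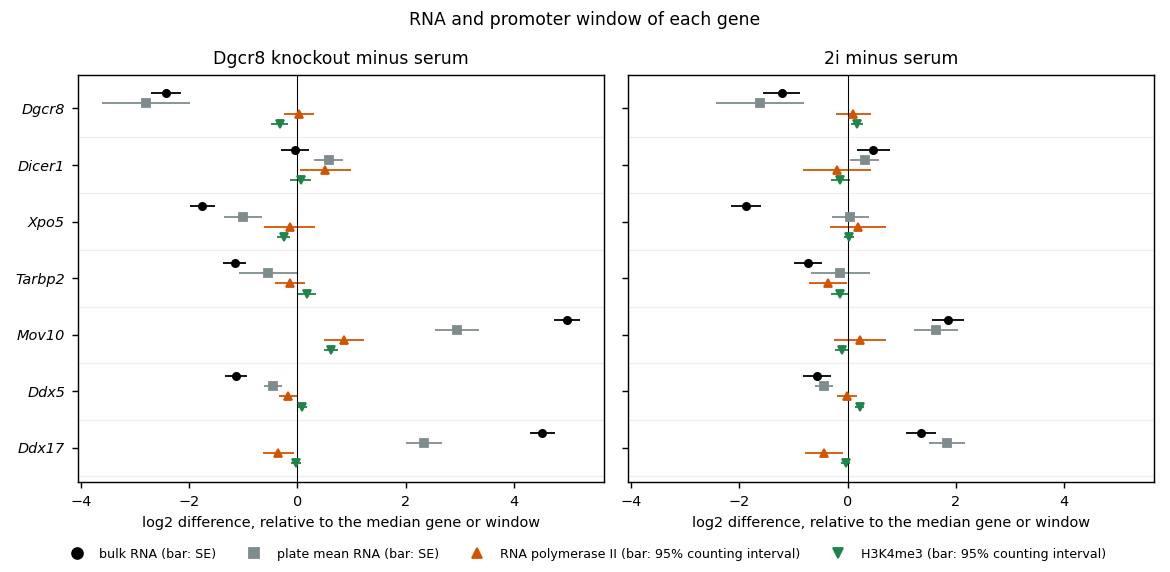
Log2 difference from serum of bulk RNA, plate RNA, RNAP2 and H3K4me3 for each member, relative to the median gene or window, for KO minus serum and 2i minus serum. Bars are the SE for RNA and the 95% counting interval for ChIP. For Mov10 in KO all 4 measures lie above 0, while for Ddx17 both RNA measures lie above 0 and RNAP2 below.

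H3K27ac is the acetylation of active promoters and enhancers. In KO it stood above the median window at Mov10, Ddx5, Tarbp2, Dicer1 and Ddx17, and below it at Dgcr8 and Xpo5. By construction as many windows lie above the median window as below it, so 5 of 7 members above it is no result. Only Mov10 lay 1 or more from it in KO. Mov10 had 623 H3K27ac counts in KO, 663 in 2i and 350 in serum, a scaled log2 ratio of 0.80 in KO (0.60 to 0.99) that stood 1.02 above the median window, past 97.5% of windows, where 10.6% of windows lay 1 or more from the median. In 2i it stood 0.72 above the median window, short of the distance of 1 that 14.9% of windows passed. Ddx5 had 1160 H3K27ac counts in KO, 1094 in 2i and 708 in serum, and stood 0.90 above the median window in KO, past 96.1% of windows. Its RNA did not pass the test in bulk. Ddx17 had 1284 counts in KO, 1458 in 2i and 1125 in serum, with a scaled log2 ratio of 0.15 in KO (0.04 to 0.27), which is 0.38 above the median window. Tarbp2 stood 0.52 and Dicer1 0.43 above the median window in KO. H3K27me3, the Polycomb mark, gave 6 to 22 counts at every member in every culture, against median windows of 18 in KO, 16 in 2i and 20 in serum, and is too low to order the members.

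Of the wider pathway, 37 other microRNA pathway genes were followed, of which 35 passed the filter in bulk. In KO against serum 21 rose, 5 fell and 9 did not pass, with a median log2 difference of 0.94 beside 0.92 for all genes, of which 62.5% rose and 11.7% fell. After centring 6 were higher and 13 lower, beside 21.8% and 36.5% of all genes. The counts as deposited were near those shares. Lin28a, an RNA-binding protein that blocks let-7 maturation, fell, with log2 differences of -3.38 in KO (SE 0.22, limma adjusted p = 9.59e-08) and -4.67 in 2i (SE 0.27, adjusted p = 1.38e-07). Hnrnpa1, a splicing factor that binds some microRNA precursors, fell too (-1.76 in KO and -1.63 in 2i), and Ddx20, a helicase of the SMN complex, fell in KO (-0.996). The largest rises in KO were Fxr1, a relative of the fragile X protein (2.24), Xrn1, an RNA exonuclease (2.02), and Trim71, a known let-7 target (1.98). These are bulk differences. On the KO plate Trim71 averaged 28.7 TPM, between the serum plates (25.1 and 31.4 TPM). Gemin4, a bulk fall in 2i given below, averaged 15.4 TPM on the 2i plate, not below serum (15.2 and 9.06 TPM). The other genes named in this paragraph kept their bulk direction on the plates. In 2i 4 of the 35 rose, 5 fell and 26 did not pass, with a median of 0.23 beside 0.20 for all genes, of which 20.4% rose and 11.8% fell. The rises included Ago2 (1.72, SE 0.32, limma adjusted p = 0.00140), Xrn2 (1.16) and Fmr1 (0.96), and Gemin4 fell by 2.09. In the averaged cells 19 of 36 rose and 2 fell in KO (median 1.51 beside 1.38, with 50% and 2.97% of all genes called), and 16 rose and 1 fell in 2i (median 1.43 beside 1.24, with 39% and 1.82% called).

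Drosha, the nuclease partner of DGCR8, whose values also stand under the name Rn3, did not pass the test in either comparison. It had 5.39 and 5.28 TPM in KO, 4.74 TPM in 2i and 4.28 and 3.55 TPM in serum, with log2 differences of 0.37 in KO (limma adjusted p = 0.199) and 0.23 in 2i (adjusted p = 0.610). Ago1, listed as Eif2c1, had 3.22 and 2.71 TPM in KO, 0.777 TPM in 2i and 0.0610 and 0.0481 TPM in serum, and rose by 1.91 in KO (SE 0.23, limma adjusted p = 1.37e-05). Ago2 had 2.99 and 2.49 TPM in KO, 5.38 TPM in 2i and 1.16 and 0.726 TPM in serum, so its highest level was in 2i, and its KO difference was 0.95 (limma adjusted p = 0.00531). Ago3 had 3.22 and 2.71 TPM in KO, the same 2 values as Ago1, with 0.969 TPM in 2i and 1.52 and 0.832 TPM in serum. Ago4 was at 0.264 and 0.0201 TPM in KO and listed at 0 in 2i and serum, and was not tested.

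Among 62 other RNA helicases, the median difference from serum lay below that of all genes in both comparisons. Of the 52 tested in bulk, 22 rose, 9 fell and 21 did not pass in KO, with a median log2 difference of 0.48 beside 0.92 for all genes, of which 62.5% rose and 11.7% fell. After centring 6 were higher and 28 lower, beside 21.8% and 36.5% of all genes. In 2i 3 rose, 18 fell and 31 did not pass, with a median of -0.51 beside 0.20 for all genes, of which 20.4% rose and 11.8% fell. The largest rises in KO were Ddx54 (2.36, SE 0.28, limma adjusted p = 1.24e-05), Ddx41 (2.11) and Dhx29 (1.98), all smaller than those of Mov10 and Ddx17. The largest falls in KO were Ddx39 (-2.40) and Bat1a, also called Ddx39b (-2.22), both mRNA export helicases, and Dhx9 (-1.27). In 2i Dhx32 (1.41), Helz (1.02) and Eif4a1, a translation initiation helicase (0.57), rose. Ddx58, the RNA sensor RIG-I, fell in bulk 2i (-2.42, SE 0.34, limma adjusted p = 2.14e-04), as did Ddx3x (-1.74) and Ddx47 (-1.601). On the 2i plate Ddx47 averaged 64.7 TPM, above serum (36.9 and 28.9 TPM). Ddx3x averaged 54.7 TPM there, also above serum (43.01 and 38.4 TPM). Eif4a1 averaged 281 TPM, between the serum plates (206 and 312 TPM). The other helicases given here with a difference kept their bulk direction on the plates. Why bulk and plates differed was not tested. In the averaged cells 19 of 61 rose and 2 fell in KO (median 1.09 beside 1.38, with 50% and 2.97% of all genes called), and 14 rose and none fell in 2i at the adjusted threshold of limma (median 1.04 beside 1.24, with 39% and 1.82% called). Ddx20 and Ddx6 stand on both lists.

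The genes most alike to each member were taken by the distance on the log2(TPM + 1) scale over the 5 bulk libraries and 4 mESC plates, each gene centred on its own means, among 9928 genes. Ddx17 was the gene nearest to Mov10 (distance 1.11), while Mov10 ranked 3 from the nearest to Ddx17. That distance is larger than any of those given below for the other members. Lamp2, the gene of a lysosomal membrane protein, was among the nearest 3 of both. Lamp2 had 185 and 185 TPM in KO, 9.95 TPM in 2i and 3.88 and 3.43 TPM in serum. The nearest to Dgcr8 were Gng3 (0.84), Tuba1a (0.88) and 9430038I01Rik (0.92), and to Dicer1 they were Ylpm1 (0.20), D14Abb1e (0.21) and Adnp (0.24). Those of Xpo5 were Dnajc11 (0.38), Ftsj3 (0.39) and Glipr2 (0.45), those of Tarbp2 were 0610011L14Rik (0.39), Dpp9 (0.40) and Psmd1 (0.42), and those of Ddx5 were Ska1 (0.30), Epc2 (0.32) and Anapc16 (0.34). A gene with small changes is near many others, so these distances describe likeness over 9 samples only.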

How the data were processed

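The authors deposited RNA values as the natural log of TPM + 1, since values sum to nearly the TPM total once the log is reversed, and ChIP values as raw read counts per 1000-base window. The submitters' processing notes list Bowtie, RSEM and build mm9 without versions or roles, and the filters used were not given in the sources used here. Per the labels' protocols, cells were loaded on C1 chips with chambers inspected optically, amplified by SMART-Seq and read as 25-base pairs. The numbers of cells equal those in the series' design, every cell was kept, doublets were not called, and no 2 columns were identical. Names that a spreadsheet had made into dates were dropped (51 in the mESC table, 0 in the others).

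The 7 genes and the lists were chosen with earlier results of these data known. The named genes are the 7 members, of each list the 3 largest called rises and falls in bulk in KO and 2i, Drosha and Ago1 to Ago4 whatever their values, and the 3 genes nearest to each member, of which 1 is not reported here. Tests used limma 3.58.1 (R 4.3.3, mean-variance trend) on log2 values after adding 1 TPM, keeping genes whose mean reached 1 TPM, with Benjamini-Hochberg adjustment over all genes tested. The bulk fit (5 libraries) had 2 residual degrees of freedom and the plate fit (4 plates, each 1 sample) had 1, and the spread of a lone sample is borrowed from the paired groups. Nothing says that replicates are separate cultures, so each p-value reflects the spread of these samples alone, possibly a technical one. On data simulated after bulk KO against serum (200 changed of 10081 genes) the fit recovered 71% of changes of 1 and 100% of changes of 2 on the log2 scale and called 26 unchanged genes. After the plate comparison (12397 genes) it recovered 7% and 27% and called 2. Far more genes were called in the data than were changed in the simulations, and the adjusted threshold depends on that share. The recovered percentages therefore describe a setting with few changes and do not carry over to the comparisons here. ChIP counts were scaled to the sum over windows, 902007 to 1632114 for RNAP2, with exact counting intervals for the ratio of 2 counts. Alternatives covered the pseudocount, filters, centring, quantile normalisation, summaries over cells, libraries left out, a replicate block, detection and variability settings, and ChIP scaling. Other calculations used Python 3.11.15 with numpy 2.4.6, pandas 2.3.3 and scipy 1.17.1.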

Additional observations from a re-analysis of the deposited data

How the results depend on the processing

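In bulk, Mov10 and Ddx17 kept their KO calls in all 12 alternatives. Leaving out 1 library gave 3 to 5 called members in KO against serum, beside 5. Without a filter, 1 member was called in 2i, beside 4. On plates, quantile normalisation left 2 members in KO, beside 4, and 0 in 2i, beside 2, where means and medians over cells of the log value gave 5 and 5. Genes called in bulk with mean TPM of at least 5 numbered 4274 in KO against serum, beside 7486, and 3822 in KO against 2i, beside 6150, where fewer genes were tested. Without a filter 1469 were called in 2i, beside 3239. On KO plates 4322 (median over cells) and 2587 (quantile) genes were called, beside 6568, and on 2i plates 7988 (mean over cells) and 1224 (quantile), beside 5057. Members in at least 95% of cells at a TPM of 10 numbered 4 in 2i, 2 and 1 on the serum plates and 1 in NPCs, beside 7, 4, 4 and 2. Members above the running median of SD, over cells that have the transcript, numbered 1 in KO, 1 in 2i and 1 on the first serum plate (1 there with a pseudocount of 0.1 too), beside 2 each.

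The signs of these log2 differences turned. In bulk KO against serum Dicer1 was -0.25 centred and -0.10 with quantile normalisation, and Ddx5 lay between -0.45 and 0.028 with 1 library left out, the last of these without the first serum library. In KO against 2i, centred and quantile values were -0.67 and -0.54 for Dicer1, -0.57 and -0.49 for Tarbp2 and -0.71 and -0.49 for Ddx5, and Xpo5 was -0.023 centred. On KO plates Xpo5 was -0.46 (mean over cells), -0.0046 (median), -1.17 (centred) and -1.09 (quantile), Tarbp2 -0.23 (mean over cells), -0.70 (centred) and -0.27 (quantile), and Ddx5 -0.62 (centred). On 2i plates centred values were -0.021 for Xpo5, -0.21 for Tarbp2 and -0.51 for Ddx5, with quantile values of -0.041 for Tarbp2 and -0.20 for Ddx5, and Dgcr8 was 0.32 without the first serum plate, with no test. The cause was not tested. The KO and serum libraries share replicate numbers, but the correlation of their paired deviations was -0.0255 in 2 pairs, and with the replicate block 5 members and 7690 genes were called, beside 5 and 7486. Input subtraction left no positive value for 5 of 14 RNAP2 and 5 of 14 H3K4me3 ratios, so no count of members was made under it. For RNAP2 these were Xpo5 and Dicer1 in both comparisons and Mov10 in 2i. For H3K4me3 they were Dicer1 and Tarbp2 in both comparisons and Dgcr8 in KO. Where a value was left, input subtraction turned the sign for Tarbp2 in RNAP2 and for Ddx5 in H3K4me3, in both comparisons. RNA depth is unknown, and a plate with a serum plate left out has no test.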
